A study of Mus musculus with 9 samples.

Results

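Small leucine-rich proteoglycans (SLRPs) are secreted proteins built from leucine-rich repeats that coat collagen fibrils of the extracellular matrix. Most of them carry chondroitin, dermatan or keratan sulfate chains, and in skin they set the spacing and thickness of collagen fibrils and bind growth factors of the TGF-beta family. They are made mainly by fibroblasts, and several are also abundant in cartilage, tendon and bone. Described here are 9 genes of the family, namely Dcn, Lum, Bgn, Ogn, Omd, Prelp, Aspn, Podn and Kera. The rule for them uses gene names alone, but they were chosen with earlier results of these data known. All 9 were among the 52550 genes of the count table, and all 9 passed the filter on low counts that left 22430 genes for testing.

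The RNA came from the dermis of ears of wild-type C57BL/6 mice (C57BL/6J in the study's methods) aged 8 weeks, with 3 libraries in each of 3 groups. VAS+H2O, the control, received vaseline on the ears and water by gavage. IMQ+H2O received imiquimod (IMQ), a Toll-like receptor agonist whose cream induces psoriasis-like inflammation in mouse skin, with the same gavage of water. IMQ+XYF also had imiquimod on the ears, and its gavage held the herbal decoction Xiao-Yin-Fang, labelled XYF, at 23.3 mg/g. Imiquimod or vaseline was applied for 5 days, and the gavage lasted 10 days and began before the application. The sources state that ear sheets of more than 1 mouse were used, but not how mice were divided among libraries, so the p-values measure the spread between these libraries, which may be in part technical.

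Total counts ranged from 28756305 to 79836881 per library, and mitochondrial genes took 8.21 to 14.3% of counts. The dermal fibroblast markers were present in every library, with a summed level of 3933 to 13606 CPM (counts of a gene per 1000000 counts of its library, scaled here by TMM factors). Markers of other ear tissues were present as well, and 3 libraries stood apart in them. The summed level of 16 cartilage markers was 6663 CPM in VAS+H2O replicate 1 against 2430 and 2781 in the other controls, and 5405 CPM in IMQ+XYF replicate 2 against 1954 and 2584 in the other treated libraries. That of 6 keratinocyte markers was 13903 CPM in IMQ+XYF replicate 1 against 1981 to 5735 in the other 8 libraries. The members' values are therefore also given without these libraries where that moved them. In bulk RNA, fewer cells of a type and less RNA per cell cannot be told apart.

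The 9 genes lie on 5 chromosomes, and 6 of them lie in 2 clusters (GRCm38, GENCODE annotation). On chromosome 10, Dcn (chr10:97479609-97518143), Lum (chr10:97565128-97572703) and Kera (chr10:97606879-97613692) follow each other on the plus strand with gaps of 47 and 34.2 kb, and Epyc follows Kera after 30.4 kb. On chromosome 13, Aspn (chr13:49544443-49567565), Omd (chr13:49582462-49592822) and Ogn (chr13:49608046-49624501) follow the family gene Ecm2 on the plus strand, with gaps of 11.7 kb before Aspn, 14.9 kb before Omd and 15.2 kb before Ogn. These 3 genes lie within Cenpp on the opposite strand, whose level was 2.5 to 4.84 CPM and whose exons shared 7 bases with those of Aspn and 0 with those of Omd and Ogn. Prelp (chr1:133910304-133921414, minus strand) lies between Optc and Fmod, 2 further family genes, and shares 350 of its 3615 exon bases with the antisense gene Gm15851, which reached at most 0.386 CPM. Bgn (chrX:73483602-73495933, plus strand) and Podn (chr4:108014791-108096445, minus strand) stand apart from the other members. Podn overlaps Scp2 on the same strand without shared exon bases.

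RefSeq (GRCm38.p6) gave promoter sequences for 7 of the 9 members, Dcn and Lum having no entry. The 100 bases before the RefSeq start are shown for the neighbours on chromosome 13 and for Bgn and Prelp, to set a cluster of low GC content beside a GC-rich start and a start with CCAAT. Capitals mark the motifs CCAAT and GGGCGG, searched on both strands.
Aspn (chr13:49544343-49544442, plus strand): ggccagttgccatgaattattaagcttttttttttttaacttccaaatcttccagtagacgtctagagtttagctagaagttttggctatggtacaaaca
Omd (chr13:49582362-49582461, plus strand): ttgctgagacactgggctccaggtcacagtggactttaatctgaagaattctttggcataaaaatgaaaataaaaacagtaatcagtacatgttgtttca
Ogn (chr13:49607915-49608014, plus strand): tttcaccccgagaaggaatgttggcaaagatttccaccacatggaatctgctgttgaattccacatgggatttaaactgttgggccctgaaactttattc
Bgn (chrX:73483501-73483600, plus strand): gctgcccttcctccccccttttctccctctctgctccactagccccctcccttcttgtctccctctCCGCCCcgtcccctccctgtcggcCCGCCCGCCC
Prelp (chr1:133921402-133921501, minus strand): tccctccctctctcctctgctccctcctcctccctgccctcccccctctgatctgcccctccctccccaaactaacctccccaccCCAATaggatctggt

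The upstream sequences fell at both ends of the range of base composition. Over the 250 bases before the start, GC content was 30% in Aspn, 38.4% in Omd and 42% in Ogn, and 1.47%, 9.05% and 15.9% of 32851 mouse promoters were lower. Kera stood at 42.4%, Prelp at 55.6% and Bgn at 64.4%, against a median of 52.4% over all promoters, and Podn had 2 starts at 78 and 64%. Within 100 bases, GGGCGG or its reverse complement occurred 3 times in Bgn, with 2 of the matches overlapping, and 1 time at 1 start of Podn (24.7% of promoters held it), CCAAT occurred in Prelp and Kera (18.9%), and TATAAA occurred in none of the 7 genes (5.56%).

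In control dermis, the genes spanned a wide range of level. Per kilobase of exon, Dcn (decorin, which binds type I collagen) stood first with 1060 ± 14.1 CPM per kb (SD, n = 3), followed by Bgn (biglycan, its closest relative and a ligand of Toll-like receptors on immune cells) with 381 ± 63. Lum (lumican, found in skin and cornea) had 248 ± 53. Aspn (asporin, a relative of decorin without the usual chains that competes for the same site on collagen) had 213 ± 29.6. Prelp (which anchors basement membranes to the collagen beneath them) had 202 ± 86.2. The libraries of these 3 neighbours in the order overlapped. Ogn (osteoglycin or mimecan) had 110 ± 14.6, overlapping with Omd (osteomodulin, first known from bone) at 71.1 ± 36.7. Podn (podocan) at 21.7 ± 5.56 and Kera (keratocan, the keratan sulfate proteoglycan of the corneal stroma) at 7.99 ± 3.71 closed the order, each apart from its neighbours in all 3 libraries.

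The order depended little on the group. In IMQ+H2O, Prelp (157 ± 20.1 CPM per kb) moved ahead of Lum (126 ± 45.8) and Aspn (122 ± 10.7), but the libraries of Prelp and Lum, and those of Lum and Aspn, overlapped. The same order held in IMQ+XYF, where all neighbours from Bgn (325 ± 94.8 CPM per kb) down to Omd (77.2 ± 44.9) overlapped. Dcn, with 856 ± 75.6 and 883 ± 50 CPM per kb, lay apart from Bgn in both groups. Lengths were those of all exons of a gene. With the longest coding transcript, Dcn had 3519 and Bgn 962 CPM per kb in the control, and the order of the 9 genes in the control was the same.

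The 9 genes together made up 1 to 1.16% of all counts in VAS+H2O, 0.737 to 0.865% in IMQ+H2O and 0.801 to 1.11% in IMQ+XYF. Their summed level was 10904 ± 549 CPM in VAS+H2O, 7875 ± 532 in IMQ+H2O and 9289 ± 1555 in IMQ+XYF (SD, n = 3). The IMQ+H2O libraries lay below all control libraries, while the treated libraries, from 7955 to 10997 CPM, overlapped with both groups.

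**Figure D1:**
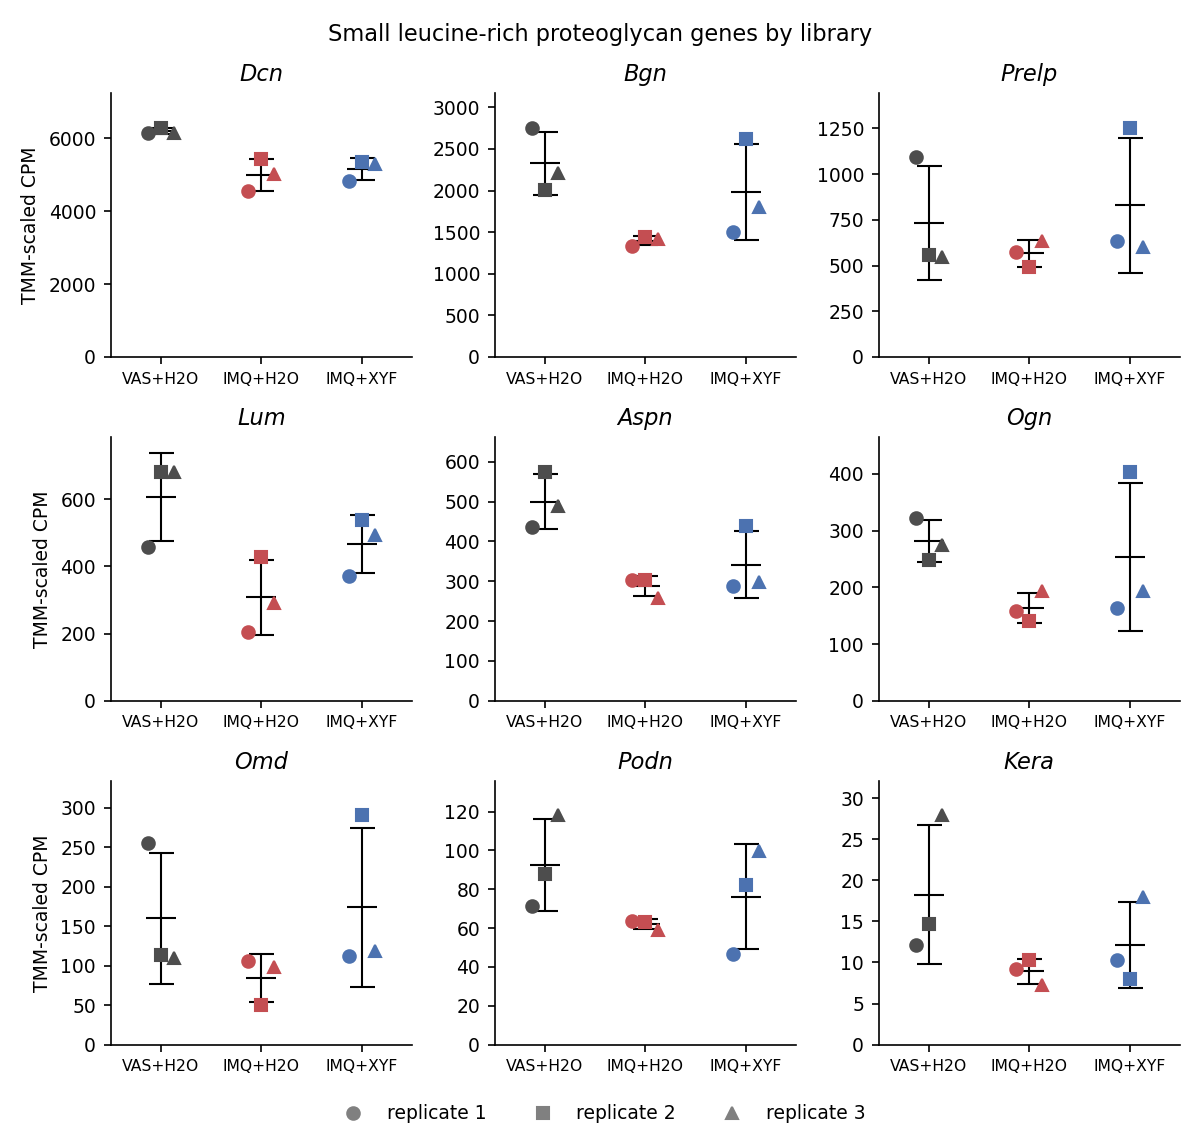
Level of each gene as TMM-scaled CPM (vertical axes, linear, starting at 0 and scaled per gene) in the 3 libraries of each group. Marker shapes give the replicate number, and lines give the mean and SD. The IMQ+H2O libraries lie below all controls for every gene but Prelp, and IMQ+XYF replicate 2 (square) is the highest treated library for 7 of the 9 genes.

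The first comparison, IMQ+H2O against VAS+H2O, asks what imiquimod changed in the dermis. All 9 genes had lower fitted levels in IMQ+H2O, with log2 fold changes from -1.03 to -0.31 and a median of -0.78, whereas the median over all 22430 genes was -0.02 with quartiles at -0.31 and 0.29. In 8 of the 9 genes, every IMQ+H2O library lay below every control library. None was called by the rule used here, a Benjamini-Hochberg adjusted p of 0.05 or lower in edgeR's quasi-likelihood test with an absolute log2 fold change of 1 or higher.

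These counts are read against all genes tested, as a description and not a test, because the members were chosen with earlier results known. A lower fitted level was found for 52.3% of them, libraries that did not overlap in this direction for 16.5%, and a call in either direction for 0.994%. An unadjusted p under 0.05 with a lower level, in edgeR, was found for 10.8% of all genes and for 6 of the 9 members (Aspn, Lum, Bgn, Kera, Dcn and Ogn). DESeq2 called 4.23% of all genes by the same rule and none of the members. By its adjusted p alone, 4.28% of all genes were lower, and among them were 4 members, namely Aspn (adjusted p = 0.00371), Lum (0.0189), Bgn (0.0223) and Dcn (0.029).

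Among the class I members, which resemble decorin, Aspn had 437, 575 and 488 CPM in replicates 1, 2 and 3 of VAS+H2O and 303, 302 and 259 in IMQ+H2O. The groups did not overlap, and Aspn had the smallest p of the 9 genes. The log2 fold change was -0.80 (SE 0.18, edgeR adjusted p = 0.069), and -0.89 without VAS+H2O replicate 1. Bgn had 2754, 2011 and 2213 CPM in the controls and 1335, 1441 and 1419 in IMQ+H2O. Its IMQ+H2O libraries lay close together, and the highest control was VAS+H2O replicate 1, the library rich in cartilage markers. The log2 fold change of Bgn was -0.73 (SE 0.21, edgeR adjusted p = 0.109), and -0.60 without that library.

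Dcn was the most abundant member, and its controls lay closest together. Its levels were 6137, 6282 and 6142 CPM in the controls and 4547, 5430 and 5008 in IMQ+H2O. All 3 IMQ+H2O libraries were lower, by 19.3% in the mean. The log2 fold change of -0.31 (SE 0.12, edgeR adjusted p = 0.2) was the closest to 0 of the 9 genes.

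Class II holds the keratan sulfate proteoglycans and their relatives. Lum had 457, 681 and 682 CPM in the controls and 205, 427 and 291 in IMQ+H2O. The means differed 1.97-fold, and the gap between the lowest control and the highest IMQ+H2O library was narrow. The log2 fold change was -0.98 (SE 0.28, edgeR adjusted p = 0.109), and -1.15 without VAS+H2O replicate 1.

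Kera, at the low end of the range, had 12.1, 14.7 and 27.9 CPM in the controls and 9.16, 10.3 and 7.31 in IMQ+H2O. Its log2 fold change was -1.03 (SE 0.38, edgeR adjusted p = 0.174). It was -0.59 without VAS+H2O replicate 3, the highest control, and -1.26 without VAS+H2O replicate 1. Kera is also a marker of tendon, and the 5 tendon and ligament markers, Kera included, had a median log2 fold change of -0.59, 4 of the 5 being lower, Scx (a transcription factor of tendon cells) among them with -1.10 (edgeR adjusted p = 0.151).

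Omd and Prelp were both highest in VAS+H2O replicate 1 among the controls. Omd had 255, 114 and 110 CPM in the controls and 106, 49.8 and 98 in IMQ+H2O. VAS+H2O replicate 1 held more than 2 times the Omd level of the other controls. The log2 fold change of -0.92 (SE 0.48, edgeR adjusted p = 0.308) was -0.41 without it.

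Prelp had 1091, 556 and 546 CPM in the controls and 576, 490 and 635 in IMQ+H2O. It was the member whose groups overlapped. Its log2 fold change was -0.37 (SE 0.35, edgeR adjusted p = 0.58) and turned to 0.04 without VAS+H2O replicate 1.

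Of the class III and class V members, Ogn had 323, 249 and 274 CPM in the controls and 159, 140 and 193 in IMQ+H2O. Every IMQ+H2O library was lower, and the log2 fold change was -0.78 (SE 0.31, edgeR adjusted p = 0.203). The log2 fold change of Ogn was -0.68 without VAS+H2O replicate 1. IMQ+XYF replicate 2 is in neither group compared here and enters only the shared spread. Without it the log2 fold change of Ogn was -0.76, with an edgeR adjusted p of 0.0389, the lowest over all alternatives. Podn had 71.6, 88.1 and 118 CPM in the controls and 63.7, 63.3 and 59 in IMQ+H2O. The IMQ+H2O libraries of Podn were nearly equal. Its log2 fold change was -0.58 (SE 0.27, edgeR adjusted p = 0.256). It was -0.37 without VAS+H2O replicate 3, the highest control, and -0.74 without VAS+H2O replicate 1.

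**Figure D2:**
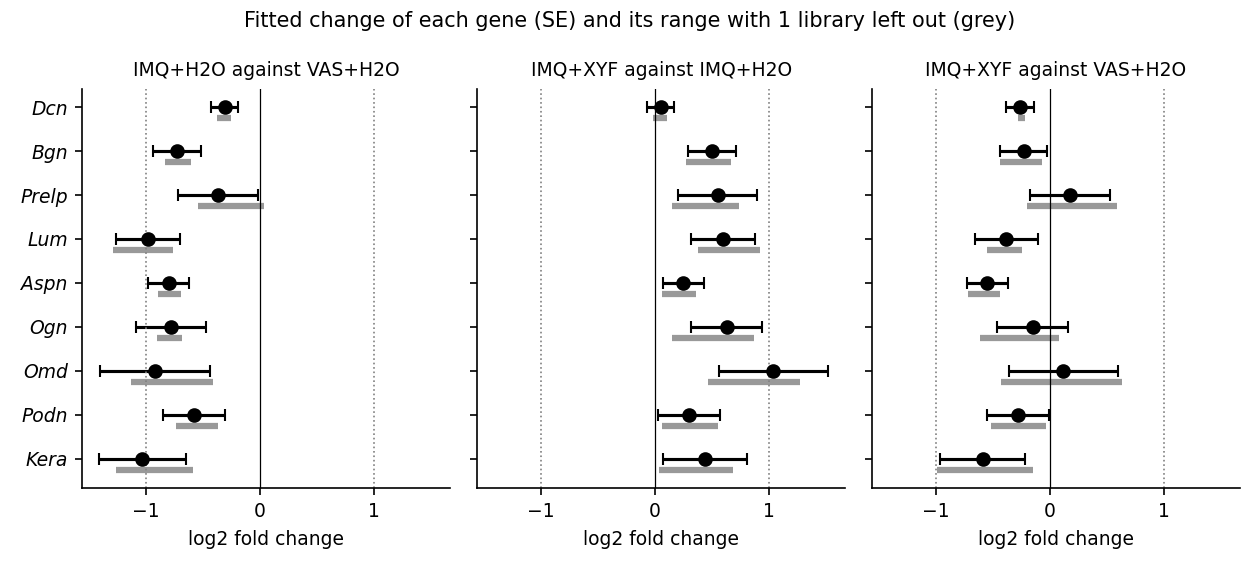
Fitted log2 fold change of each gene (points, with SE) in the 3 comparisons, and in grey its range when each of the 9 libraries is left out in turn. Dotted lines mark -1 and 1. All 9 points lie below 0 for IMQ+H2O against VAS+H2O and above 0 for IMQ+XYF against IMQ+H2O, and the grey range of Prelp crosses 0 in the first of these and that of Dcn in the second.

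The second comparison, IMQ+XYF against IMQ+H2O, asks what XYF changed in mice given imiquimod. It shares the IMQ+H2O libraries with the first, so that low values in those libraries lower one comparison and raise the other. All 9 genes had higher fitted levels in IMQ+XYF (50.7% of all genes tested), with a median log2 fold change of 0.50 against 0.01 over all genes. None was called by edgeR (0.00892% of all genes) or by DESeq2 (0.936%). Bgn had an unadjusted p of 0.0403 in edgeR, and no other member was under 0.05 (6.35% of all genes were, with a higher level). In Omd and Bgn, every IMQ+XYF library lay above every IMQ+H2O library, as it did for 9.22% of all genes.

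IMQ+XYF replicate 2, rich in cartilage markers, held the highest treated level of 7 of the 9 genes. Without it the median log2 fold change of the 9 genes was 0.27, and without IMQ+XYF replicate 1, rich in keratinocyte markers, it was 0.67. Omd had 112, 290 and 119 CPM in IMQ+XYF, and its log2 fold change of 1.04 (SE 0.48, edgeR adjusted p = 0.44) was 0.47 without replicate 2. Ogn had 164, 404 and 194 CPM, and its log2 fold change was 0.63 (SE 0.31, edgeR adjusted p = 0.457) and 0.15 without that library. Prelp had 633, 1253 and 601 CPM, with 0.55 (SE 0.35, edgeR adjusted p = 0.545) and again 0.15 without it. Without IMQ+XYF replicate 1, the log2 fold changes of Omd, Ogn and Prelp were 1.27, 0.87 and 0.71. In these 3 genes replicate 2 was the highest of all 9 libraries, and the other treated libraries lay close to each other.

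Bgn had 1508, 2625 and 1807 CPM in IMQ+XYF, with a log2 fold change of 0.50 (SE 0.21, edgeR adjusted p = 0.408). It was 0.27 without IMQ+XYF replicate 2 and 0.67 without IMQ+XYF replicate 1. Lum had 370, 537 and 493 CPM. Its libraries overlapped with those of IMQ+H2O through IMQ+XYF replicate 1, and its log2 fold change was 0.60 (SE 0.28, edgeR adjusted p = 0.436). It was 0.52 without IMQ+XYF replicate 2, 0.75 without IMQ+XYF replicate 1, 0.38 without IMQ+H2O replicate 1 and 0.92 without IMQ+H2O replicate 2.

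Dcn differed little between the 2 imiquimod groups. Its levels in IMQ+XYF were 4821, 5359 and 5288 CPM, and the log2 fold change of 0.05 (SE 0.12, edgeR adjusted p = 0.903) turned to -0.02 without IMQ+H2O replicate 1. Aspn had 289, 438 and 298 CPM, with 2 libraries within the range of IMQ+H2O, and a log2 fold change of 0.25 (SE 0.18, edgeR adjusted p = 0.591), which was 0.06 without replicate 2. Kera had 10.3, 7.99 and 18 CPM and Podn 46.9, 82 and 99.7. For both, IMQ+XYF replicate 3 was the highest treated library, and their log2 fold changes of 0.44 and 0.30 were 0.04 and 0.06 without it. In the other direction, Kera had 0.69 without IMQ+XYF replicate 2 and Podn 0.55 without IMQ+XYF replicate 1.

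The third comparison, IMQ+XYF against VAS+H2O, asks how the treated dermis stood to the control. It shares libraries with each of the other comparisons. Of the 9 genes 7 had lower fitted levels in IMQ+XYF (52.7% of all genes), and the median log2 fold change was -0.26 against -0.02 over all genes. None was called by edgeR (1.20% of all genes) or DESeq2 (3.17%). Dcn was the member whose libraries did not overlap, with a log2 fold change of -0.26 (SE 0.12, edgeR adjusted p = 0.295), and 10.3% of all genes were lower without overlap. Aspn had a log2 fold change of -0.55 (SE 0.18, edgeR adjusted p = 0.15) and was the member with an unadjusted p under 0.05, at 0.0141 (8.76% of all genes). Without IMQ+XYF replicate 2 its log2 fold change was -0.72 with an adjusted p of 0.0244. The fitted levels of Omd and Prelp were higher in IMQ+XYF, with log2 fold changes of 0.12 (SE 0.48) and 0.18 (SE 0.35). Both turned negative without IMQ+XYF replicate 2, at -0.43 and -0.20. Without VAS+H2O replicate 1, also rich in cartilage markers, they rose to 0.63 and 0.59.

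The make-up of the family was described by each gene's share of the summed CPM per kb. The share of Dcn was 43.1, 47.7 and 46.8% in VAS+H2O, 52, 54.7 and 52.6% in IMQ+H2O, and 50, 38.1 and 48.8% in IMQ+XYF. Dcn thus held a larger share in every IMQ+H2O library than in any library of the other groups, while its own level there was below that of the controls. In a 2-sided exact permutation test, p was 0.1 for IMQ+H2O against either other group, the smallest that 3 against 3 libraries allow, and adjusted p was 0.675 over 27 such tests. Bgn held 14.3 ± 0.364% in IMQ+H2O and 16.3 ± 1.47% in IMQ+XYF without overlap (exact permutation p = 0.1, adjusted p = 0.675), and 16.4 ± 1.97% in VAS+H2O, where the libraries overlapped. The ratio of Dcn to Bgn, both per kb, was 2.83 ± 0.471 in VAS+H2O, 3.73 ± 0.192 in IMQ+H2O and 2.84 ± 0.632 in IMQ+XYF. The shares of Lum, Aspn, Ogn, Omd, Podn and Kera overlapped between IMQ+H2O and each other group, and so did that of Prelp.

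**Figure D3:**
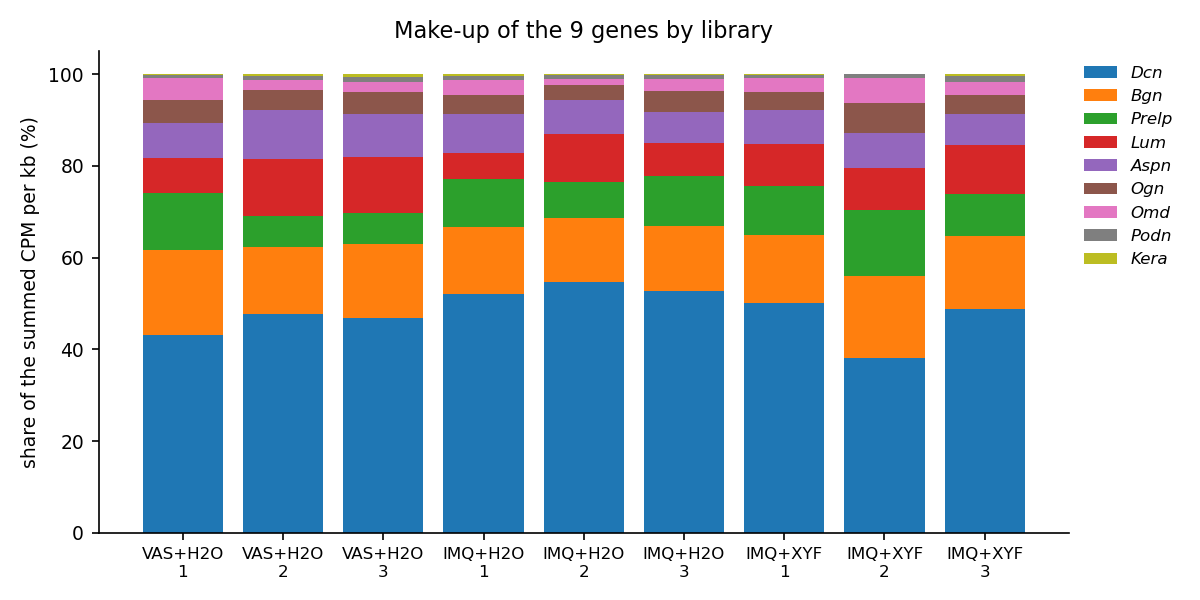
Share of each gene in the summed CPM per kb of the 9 genes (vertical axis, percent) for each library. Dcn fills 52 to 54.7% of the bars of IMQ+H2O and 38.1 to 50% of the bars of the other groups, and the 2 libraries with the smallest Dcn share, VAS+H2O replicate 1 and IMQ+XYF replicate 2, have the largest shares of Prelp and Omd.

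Neighbouring genes were set side by side by cluster. On chromosome 13, the imiquimod log2 fold changes of Ecm2, Aspn, Omd and Ogn were -1.21, -0.80, -0.92 and -0.78. On chromosome 10, Lum and Kera had -0.98 and -1.03, whereas Dcn and Epyc at the ends of the cluster had -0.31 and -0.27, Epyc being measured at no more than 3.39 CPM. Within each cluster the ratio of neighbours still varied between replicates. Aspn over Omd, both per kb, was 1.64, 4.8 and 4.25 in the controls, 2.73, 5.81 and 2.52 in IMQ+H2O and 2.47, 1.44 and 2.41 in IMQ+XYF, and Lum over Kera ranged from 20.8 to 62.6 over the 9 libraries.

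The other 9 genes of the family had lower fitted levels in IMQ+H2O in 9 of 9 cases, with a median log2 fold change of -0.40 and none called. Ecm2, a decorin-like matrix protein, had 506, 316 and 403 CPM in the controls and 186, 168 and 175 in IMQ+H2O, and its log2 fold change was -1.21 (SE 0.27, edgeR adjusted p = 0.0686). Chad (chondroadherin, a cartilage matrix protein) and its relative Chadl had -1.75 (SE 0.55, adjusted p = 0.134) and -1.38 (SE 0.36, adjusted p = 0.093). Fmod (fibromodulin, the closest relative of lumican) had -0.52 (SE 0.29), and Tsku had -0.04 (SE 0.37). Optc, Nyx and Podnl1 stayed below 2 CPM in every library. Against IMQ+H2O, 6 of the 9 were higher in IMQ+XYF, with a median of 0.30 and none called, led by Chadl (1.09, edgeR adjusted p = 0.37), Chad (0.95) and Ecm2 (0.83).

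Several gene groups act on these proteoglycans. Of 13 enzymes that build or extend the glycosaminoglycan chain, 11 had lower fitted levels in IMQ+H2O and none was called. Xylt1, which starts the chain on the core protein, had 160, 132 and 147 CPM in the controls and 68.6, 42 and 44 in IMQ+H2O (log2 fold change -1.51, SE 0.37, edgeR adjusted p = 0.0831). Its levels in IMQ+XYF were 60.2, 193 and 119 CPM, replicate 2 being again the highest. The phosphatase Pxylp1 and the kinase Fam20b, which act on the first sugar of the chain, had imiquimod log2 fold changes of -1.01 and -0.47. Of 9 tested dermatan epimerases and chondroitin sulfotransferases 7 were lower and none was called, Chst3 (-0.64) and Chst11 (-0.63) lying below all controls and Chst7 (0.76) above them. Of the 5 keratan sulfate enzymes 3 were higher and 2 lower, with a median of 0.26 and none called. The largest changes were in Chst5 (-1.20, edgeR adjusted p = 0.399), Chst2 (-0.61, 0.337) and B4galt4 (0.54, 0.108). The libraries overlapped for Chst5 and Chst2 but not for B4galt4, and Chst5 reached at most 0.997 CPM.

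Collagens, the partners of these proteoglycans, had lower fitted levels in IMQ+H2O in 11 of 11 genes listed, which were fibril-forming, fibril-associated or of type VI. The median log2 fold change was -0.73 and none was called. Col14a1 (-1.02), Col5a1 (-0.95) and Col6a2 (-0.86, edgeR adjusted p = 0.0706) had the largest. In IMQ+XYF against IMQ+H2O their median was -0.09, with Col6a3 at 0.65 and Col6a2 at 0.58, and Col1a1 at -0.55. Of 12 genes for proteases of procollagen or SLRPs and for enhancers of this processing, 5 were lower, none was called and the median was 0.11. Mmp3, a matrix metalloproteinase, had 1.43 (edgeR adjusted p = 0.155), Pcolce2, an enhancer of procollagen processing, -0.96 (0.12) and Adamts5 0.66. Of 16 growth factors and receptors bound by SLRPs none was called, the median being -0.05. Cd14 had 1.34 (edgeR adjusted p = 0.17), Tlr4 1.20 (0.294) and Bmp4 -1.10 (0.21), each with libraries that overlapped between the groups. For Tlr4, VAS+H2O replicate 1 at 22.2 CPM lay within the range of IMQ+H2O. Of 18 other proteoglycans 14 were lower, led by Acan (aggrecan of cartilage, -1.68, edgeR adjusted p = 0.0753), while Srgn, the proteoglycan of leukocyte granules, was higher (1.31, adjusted p = 0.0961). Esm1, of endothelium, was called lower in IMQ+XYF against VAS+H2O, with a log2 fold change of -2.02 (edgeR adjusted p = 0.0326).

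Cartilage markers, like the members, were at their lowest in IMQ+H2O. Within VAS+H2O and within IMQ+XYF, the cartilage sum and the sum of the members were highest in the same library. Within IMQ+H2O they were not. The summed level of the markers was 2430 to 6663 CPM in VAS+H2O, 846 to 1740 in IMQ+H2O and 1954 to 5405 in IMQ+XYF. All 15 tested markers were lower in IMQ+H2O (median log2 fold change -1.86), of which Col2a1 (-2.70, edgeR adjusted p = 0.0247), Matn3 (-2.48, 0.0407) and Col9a3 (-2.05, 0.0436) were called, and all 15 were higher in IMQ+XYF against IMQ+H2O (median 1.5) with none called. Matn1 was at 0 counts in every library. Omd was the member that was highest in the same library as the cartilage sum in 3 of 3 groups, as were 9.55% of all genes tested. Aspn, Ogn, Bgn and Prelp were so in 2 of 3 groups, Dcn, Lum and Podn in 1, and Kera in 0. The part of cartilage in the members' differences was not tested.

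The 12 fibroblast markers did not follow the members in every library. Col1a1 and Col1a2 stand both among these and among the collagens above, as Acan does among the cartilage markers and the other proteoglycans. The fibroblast sum was 6640 to 13606 CPM in VAS+H2O, 5239 to 9182 in IMQ+H2O and 3933 to 8776 in IMQ+XYF. Col1a1 and Col1a2 took most of it, with 1989 and 3165 of 6640 CPM in VAS+H2O replicate 1. In IMQ+XYF replicate 2 they had 1038 and 1865 of 3933 CPM. The fibroblast and collagen sums are therefore not separate measures. The median log2 fold changes of the 12 markers were -0.23 for imiquimod and -0.31 for XYF, with none called. In VAS+H2O replicate 1 and IMQ+XYF replicate 2 the fibroblast sum was 0.63 and 0.37 times the control mean, the cartilage sum 1.68 and 1.37 times, and the sum of the 9 SLRP genes 1.06 and 1.01 times. In these 2 libraries Omd stood at 1.60 and 1.82 times its control mean and Dcn at 0.99 and 0.87 times. In the IMQ+H2O libraries the sum of the 9 genes was 0.67 to 0.77 times the control mean, beside 0.50 to 0.87 for fibroblasts and 0.21 to 0.44 for cartilage. IMQ+H2O replicate 1 had the highest cartilage sum of its group and the lowest sum of the 9 genes, of which Dcn made up 62.3%. With equal weight per gene, the mean centred log2 CPM of the 9 genes was -0.40, -0.39 and -0.35 in IMQ+H2O replicates 1, 2 and 3.

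**Figure D4:**
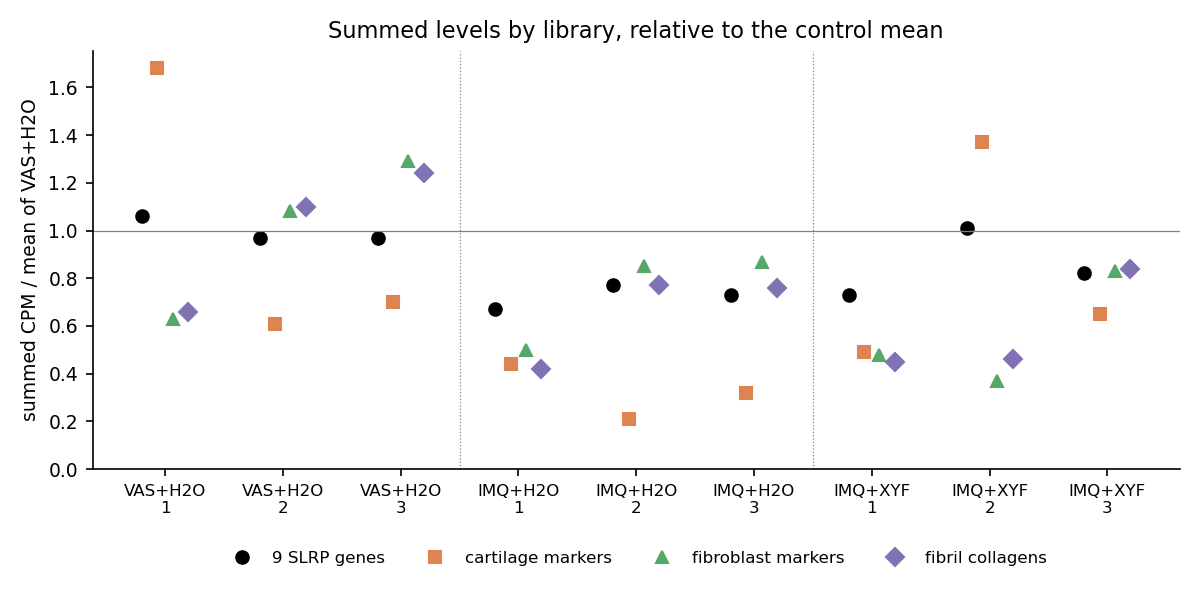
Summed CPM of the 9 SLRP genes, 16 cartilage markers, 12 fibroblast markers and 11 fibril collagens in each library, divided by the mean of the 3 VAS+H2O libraries (vertical axis, linear from 0; the line marks 1). The SLRP sum ranges from 0.67 to 1.06, and in VAS+H2O replicate 1 and IMQ+XYF replicate 2 it lies between a high cartilage and a low fibroblast sum. Col1a1 and Col1a2 are in both the fibroblast and the collagen sum, and the collagens include Col6a1, Col6a2 and Col6a3 of type VI.

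Other cell types differed between groups as well. In IMQ+H2O, 2 of 6 leukocyte markers were called higher, S100a8 (log2 fold change 5.22, edgeR adjusted p = 0.0247) and Itgam (2.55, 0.0247), and no keratinocyte, muscle, pericyte, endothelial, Schwann cell, adipocyte or tendon marker was called. The median imiquimod log2 fold change was 0.73 over 6 endothelial markers, 0.53 over 6 of smooth muscle and pericytes, and -0.51 over 6 of keratinocytes. It was 0.27 over 5 Schwann cell markers, 0.16 over 6 of skeletal muscle and 0.08 over 5 of adipocytes. Over the 6 leukocyte markers it was 0.45, and 1 of them was lower. Against IMQ+H2O, the medians in IMQ+XYF were 1.41 for keratinocytes, -1.70 for skeletal muscle, -0.88 for smooth muscle and pericytes, -0.63 for endothelium, -0.64 for Schwann cells and 0.09 for adipocytes. For leukocytes the median in IMQ+XYF against IMQ+H2O was -0.20. The bearing of these shifts on the members' share of the RNA was not tested.

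The genes whose pattern was most like that of the members were found by Pearson's r between log2 CPM and the mean of the members' centred log2 CPM over the 9 libraries, among 10884 other genes with a mean of at least 10 CPM. They were Cryl1 (r = 0.99), Lsamp, Sox9, Ecm2 and Col11a2 (0.98 each). Sox9 and Col11a2 are also among the cartilage markers listed, while none of the most alike genes is among the fibroblast markers. The points share their libraries and groups, and r is given as a description. Sox9, a transcription factor of cartilage, had 230, 188 and 188 CPM in the controls, 87.7, 75.5 and 78.9 in IMQ+H2O and 101, 264 and 147 in IMQ+XYF. Cryl1, a crystallin-like enzyme, had 19.4 ± 1.42, 12.1 ± 0.501 and 16.7 ± 4.14 CPM in the same order. Both had their lowest levels in IMQ+H2O and their highest treated level in IMQ+XYF replicate 2, a pattern that the choice by r favours. Among the members, Kera and Podn had their highest treated level in IMQ+XYF replicate 3.

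Replicate spread differed between the members. The coefficient of variation of Dcn was 1.33% in VAS+H2O, 8.84% in IMQ+H2O and 5.67% in IMQ+XYF, whereas that of Omd was 51.7, 35.9 and 58.2%. Prelp, with a higher level than Lum in IMQ+XYF, varied by 44.4% there and Lum by 18.5%. Bgn, Aspn, Podn and Kera had their smallest coefficient in IMQ+H2O, at 4.01, 8.79, 4.2 and 17%, and so had Prelp (12.8%) and Omd.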

How the data were processed

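The deposited table gave whole-number counts per Ensembl gene, with no normalization by the authors. Per the submitters' processing notes and the study's methods, reads were aligned to GRCm38 with STAR 2.5. The counting tool and its use of strand were not given in the sources used here. Libraries are labelled strand-specific, but the kit named in the study's methods does not mark strand, so reads of overlapping genes on opposite strands may not have been separated.

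The rule for the members uses gene names alone, but members and gene lists were chosen with earlier results of these data known. All 9 libraries entered 1 edgeR 4.0.16 quasi-likelihood fit (R 4.3.3, TMM factors, filterByExpr), and DESeq2 1.42.0 was an alternative. The common biological coefficient of variation was 0.296. SEs are the absolute log2 fold change over the square root of F. Levels were divided by total exon length (GENCODE), and 52403 of 52550 identifiers matched it. A count of 0 allowed up to 3 counts, 0.0373 to 0.103 CPM, for counting error only. Replicates differed beyond sampling noise in every group. The fit was tested on simulated data.

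Named genes were the 9 members, the other family genes, the called genes of each list or its 3 largest changes, and the 5 most alike. From long lists only part is given. Alternatives were RLE factors, no low-count filter, 2 groups per fit, a replicate block, no mitochondrial genes, other lengths and leaving out each library. Calls by DESeq2's adjusted p alone and the coding transcript length were added after seeing the data.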

Additional observations from a re-analysis of the deposited data

How the results depend on the processing

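No member was called in any comparison under any alternative that used both limits, or under edgeR's adjusted p alone in the full data. Under DESeq2's adjusted p alone, chosen after seeing the data, 4 members passed for imiquimod. With each library left out in turn, the median log2 fold change of the members was -0.83 to -0.68 for imiquimod, 0.27 to 0.67 for XYF, and -0.43 to -0.07 for IMQ+XYF against VAS+H2O. Of the single log2 fold changes under all alternatives, 397 kept their direction and 8 changed sign. None was called, although some passed 1 of the 2 limits. The 397 include the fits that kept all libraries of both compared groups, none of which changed a sign. The sign changes arose with 1 library left out, and the ranges over such fits were -0.54 to 0.04 for Prelp in imiquimod, -0.02 to 0.11 for Dcn in XYF, and -0.43 to 0.63, -0.61 to 0.08 and -0.20 to 0.59 for Omd, Ogn and Prelp in IMQ+XYF against VAS+H2O. The cause was not tested.

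Same-numbered libraries of different groups had correlations of their deviations from -0.183 to 0.125, so the numbers were not taken as pairs. With a replicate block the medians were -0.79, 0.49 and -0.27, and 0 members were called. Without length, the share of Dcn in VAS+H2O was 56.8% in place of 45.9%.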
